A study of Mus musculus with 9 samples.

Results

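The methionine cycle enzymes examined here were 8 genes of the expression table, Mat2a, Mat2b, Ahcy, Ahcyl1, Ahcyl2, Mtr, Mtrr and Cbs, found among its 35771 rows by their mouse Ensembl identifiers. All 8 passed the filter on low counts, as did 13424 genes in total. They had been picked with results of the same 9 libraries in view, so their levels and fold changes are given as a description without p-values. RNA was sequenced from mouse embryonic stem cells (ESCs) of a mixed background that were homozygous for iMOS T1-Myc and carried RERT, alleles shared by all 3 groups. Induced cultures received 20 µM 4-hydroxytamoxifen for 24 h, which made a mosaic, and were sorted by their yellow fluorescent protein (EYFP) level 24 h after its removal. The groups were cells with 2 extra copies of Myc and EYFP, cells of the same mosaic cultures with no extra copy, and uninduced cells that were sorted in the same way, with 3 libraries each. The labels describe the libraries as biological replicas without saying that they came from separate cultures, so the spread between them may be partly technical, and they name no promoter for the Myc cassette. The treatment text is attached to the uninduced samples too, while the design text calls them uninduced, which was followed here.

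Cells use the methionine cycle to make S-adenosylmethionine (SAM), the methyl donor for DNA, RNA, histones and many small molecules. Each methyl transfer leaves S-adenosylhomocysteine, which inhibits methyltransferases until it is hydrolysed to homocysteine. Homocysteine is then either methylated back to methionine with a methyl group from folate, or passed on to cysteine through transsulfuration. Mouse ESCs are known to depend on one-carbon units derived from threonine to keep SAM supplied.

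Expected counts, which need not be whole because the estimator divides a read that fits several transcripts among them, summed to between 4165286 and 8872303 per library. Levels are given as CPM, counts scaled to a common total of 1000000 per library, after edgeR's TMM scaling. Myc itself averaged 142 ± 4.36 CPM in cells with 2 extra copies and 31.6 ± 0.913 CPM in cells with no extra copy. It averaged 13.3 ± 1.51 CPM in uninduced cells (SD, n = 3 each). The labels order the first 2 of these groups but give no copy number for uninduced cells. Myc was higher with no extra copy than in uninduced cells without overlap, and the cause of this was not tested. Of 8 ESC markers, none was at 0, and their summed level was 3253 to 3430 CPM with 2 extra copies, 3525 to 3590 CPM with no extra copy and 3316 to 3365 CPM in uninduced cells. Summed levels of 10 fibroblast markers were 124 to 133, 199 to 223 and 80.7 to 85.6 CPM in the same order of groups, with Lum at 0 in both induced groups. Those of 10 extraembryonic endoderm markers were 270 to 283, 376 to 407 and 300 to 308 CPM, with none at 0 in every library of a group. Both of these sums were therefore highest in the cells with no extra copy, the cells against which 2 extra copies were set. Abundant markers such as Tagln, Acta2, Col1a2 and Sparc had their highest mean there, but not every marker did. Col3a1 and Gata6 had theirs with 2 extra copies, and Thy1 and Gata4 in uninduced cells. The part of these markers in the values of the methionine cycle enzymes was not tested.

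The gene that sets how Ahcy can be read is a near-copy. Ahcy encodes S-adenosylhomocysteine hydrolase and lies on the minus strand at chr2:155059310-155074497 (GRCm38, GENCODE M21). Its longest transcript has 10 exons and 2543 bases. Gm4737, at chr16:46152985-46155077 on the minus strand, is annotated in GENCODE as protein-coding, with the tag retrogene, and has 1 exon and 2093 bases. The transcripts aligned over 2086 bases with 7 differences and no gap, an identity of 99.7%. Of the differences, 4 lay in the coding sequence, C459T, G474A, C1050T and C1068T, where the first letter is the base in Ahcy, the number counts from the A of the start codon and the last letter is the base in Gm4737. All 4 fell on the last base of a codon, and the 432 encoded residues did not differ. The remaining 3 differences lay in the 3′ untranslated region. Coding stretches of 75 bases, the read length, are shown for both genes because they are the parts of the coding sequence in which a read can tell the genes apart; capitals mark the bases that differ. The first pair covers coding bases 422 to 496, which lie in exons 4 and 5 of Ahcy (chr2:155064876-155065560, intron included) and at chr16:46154517-46154591.
Ahcy 422-496: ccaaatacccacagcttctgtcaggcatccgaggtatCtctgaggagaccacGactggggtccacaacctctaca
Gm4737 422-496: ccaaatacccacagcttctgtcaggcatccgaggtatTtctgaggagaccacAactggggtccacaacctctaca
The second pair covers coding bases 1013 to 1087, within exon 9 of Ahcy (chr2:155062229-155062303) and at chr16:46153926-46154000.
Ahcy 1013-1087: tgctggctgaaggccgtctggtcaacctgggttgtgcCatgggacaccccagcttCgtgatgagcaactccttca
Gm4737 1013-1087: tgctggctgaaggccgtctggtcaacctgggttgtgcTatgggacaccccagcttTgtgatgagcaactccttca

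The other unshared windows lie around the differences in the 3′ untranslated region and at both ends of the Ahcy transcript, and elsewhere a single-end read of 75 bases fits both genes. Of the 2469 windows of 75 bases in the Ahcy transcript, 1747 (70.8%) also occur in Gm4737, and the same windows make up 86.5% of the 2019 in Gm4737. The last 416 bases of the Ahcy transcript extend past the alignment and are the longest part that Gm4737 lacks. A second near-copy, the processed pseudogene Gm9826, matches 51.1% of the Ahcy transcript at 99.15% identity. It has no row in the expression table and could not be analysed. Whether reads from it were counted in the rows of Ahcy or Gm4737 was not tested.

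**Figure D1:**
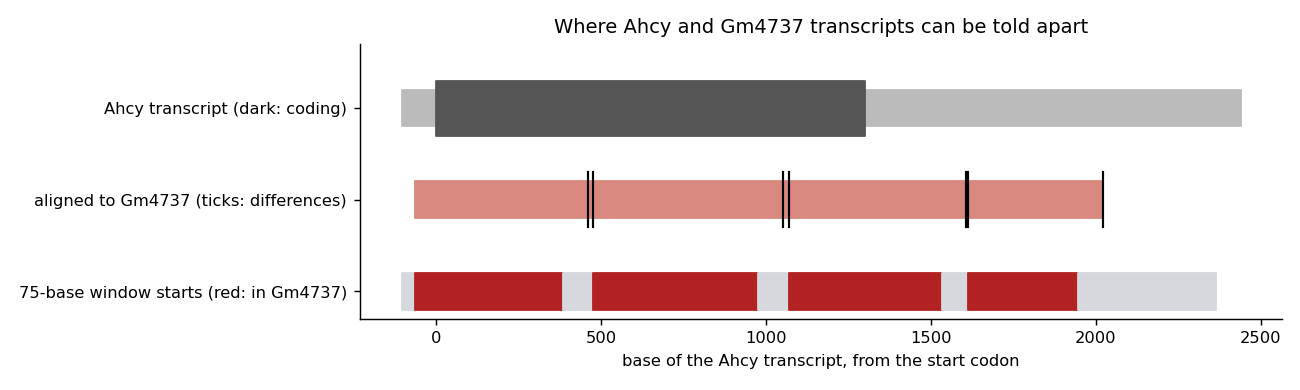
Ahcy transcript drawn to scale, with bases counted from the start codon on the horizontal axis. The upper bar is the transcript with its coding part dark, the middle bar is the stretch aligned to Gm4737 with a tick at each of the 7 differences, and the lower bar shows in red the start positions of the 1747 windows of 75 bases found in both genes.

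The deposited counts show this sharing directly. Neither Ahcy nor Gm4737 had a whole count in any of the 9 libraries, whereas their sum was whole, within 0.005, in all 9. Mat2b, Ahcyl1, Mtr, Mtrr and Cbs had whole counts in all 9 libraries, Ahcyl2 in 8 and Mat2a in 1. None of the windows of Mat2b, Ahcyl1, Mtr and Mtrr occurred in another gene of the table, and 0.163% of those of Cbs did. For Mat2a, 4.13% of the windows were shared with Particl, a transcript on the opposite strand that covers 11.3% of the exonic bases of Mat2a and had at most 2.00 CPM in any library. At lower identity, 6030443J06Rik matched 6.6% of the Mat2a transcript (95.15% identical) and the processed pseudogene Gm9523 34.3% (95.56%). Gm9523 has no row in the expression table, and the part of either in the counts of Mat2a was not tested. For Ahcyl2, 4.09% of the windows were shared with 4930528J11Rik, also on the opposite strand, which had at most 0.170 CPM. Neither the labels nor the table's header say whether reads were counted by strand.

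Most of the pair's reads were assigned to the retrogene. Gm4737 had 506, 539 and 550 CPM with 2 extra copies, 454, 461 and 445 CPM with no extra copy and 385, 392 and 412 CPM in uninduced cells. The row of Ahcy had 23.8, 24.8 and 23.9 CPM with 2 extra copies, 16.1, 12.4 and 15.0 CPM with no extra copy and 20.7, 14.5 and 14.9 CPM in uninduced cells. These rest on 63 to 165 rounded counts per library for Ahcy. All 3 libraries with 2 extra copies lay above the other 6 in both rows, but the other 2 groups were ordered differently: in Gm4737 every library with no extra copy exceeded every uninduced one, and in the Ahcy row they overlapped. Ahcy held 4.35 ± 0.176% of the pair's counts with 2 extra copies, 3.10 ± 0.428% with no extra copy and 4.06 ± 0.892% in uninduced cells (SD, n = 3 each). The share depends on how the estimator divided the reads that fit both.

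The sum of both rows does not depend on that division. It averaged 556 ± 23.1 CPM with 2 extra copies, 468 ± 7.15 CPM with no extra copy and 413 ± 12.0 CPM in uninduced cells (SD, n = 3 each), and the 3 groups did not overlap. The log2 fold change of the sum was 0.25 (SE 0.037, 1.19-fold) for 2 extra copies against no extra copy, 0.43 (SE 0.037, 1.35-fold) for 2 extra copies against uninduced cells and 0.18 (SE 0.037, 1.13-fold) for no extra copy against uninduced cells. The row of Ahcy alone gave 0.76 (SE 0.13, 1.70-fold), 0.53 (SE 0.12, 1.45-fold) and -0.23 (SE 0.13) for the same comparisons. Adding the near-copy thus brought the first value to 0.25 and turned the sign of the last. Leaving out the second library with no extra copy, which had the lowest Ahcy row, gave 0.62 for the row alone in the first comparison.

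**Figure D2:**
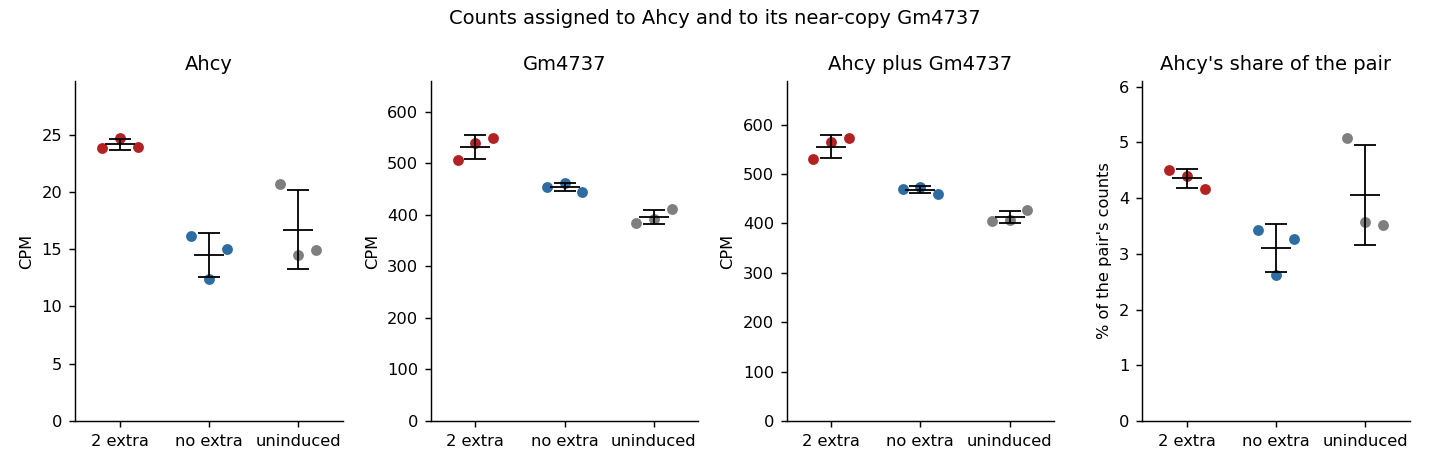
CPM of Ahcy, of Gm4737 and of their sum, and the percentage of the summed counts held by Ahcy, with cells carrying 2 extra Myc copies on the left, cells with no extra copy in the middle and uninduced cells on the right. Points are the 3 libraries and bars the mean ± SD; the sum separates all 3 groups, whereas the Ahcy row overlaps between no extra copy and uninduced and its share is lowest with no extra copy.

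Among the enzymes of SAM synthesis, Mat2a encodes the catalytic subunit of the methionine adenosyltransferase found in most tissues, and lies on the minus strand at chr6:72432799-72439558. Mat2a had 560, 576 and 581 CPM with 2 extra copies, 494, 483 and 490 CPM with no extra copy and 505, 511 and 493 CPM in uninduced cells. Every library with 2 extra copies lay above the other 6, and the other groups overlapped. Its log2 fold change was 0.23 (SE 0.035, 1.17-fold) against no extra copy and 0.19 (SE 0.034, 1.14-fold) against uninduced cells, and -0.042 (SE 0.035) between no extra copy and uninduced cells. Mat2a rested on 2056 to 4324 counts per library, the most of the 8 rows, and without the first library with 2 extra copies the first 2 values were 0.26 and 0.22.

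Mat2b, at chr11:40679314-40695203 on the minus strand, encodes the regulatory subunit that binds the catalytic one. It had 98.9, 104 and 102 CPM with 2 extra copies, 90.6, 92.1 and 81.7 CPM with no extra copy and 99.8, 99.7 and 94.1 CPM in uninduced cells. The cells with no extra copy were lowest, without overlap with either other group, and the other 2 groups overlapped. The log2 fold changes were 0.19 (SE 0.054, 1.14-fold) for 2 extra copies against no extra copy, 0.052 (SE 0.052) for 2 extra copies against uninduced cells and -0.14 (SE 0.053) for no extra copy against uninduced cells. Unlike Mat2a, Mat2b was thus higher with 2 extra copies in one of the 2 comparisons only; the difference between the subunits was not tested.

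Ahcyl1 and Ahcyl2 resemble Ahcy in sequence but are known mainly as binding partners of ion channels and transporters, Ahcyl1 of the inositol trisphosphate receptor. Ahcyl1, at chr3:107663118-107696560 on the minus strand, had 101, 104 and 102 CPM with 2 extra copies, 104, 100 and 108 CPM with no extra copy and 98.3, 104 and 101 CPM in uninduced cells. The groups overlapped in all 3 comparisons, and the log2 fold changes were -0.017, 0.016 and 0.033 with SEs of 0.050 to 0.051, the first 2 changing sign when a library was left out and the second also with scaling by library size alone.

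Ahcyl2, at chr6:29768011-29912310 on the plus strand, had 34.4, 34.0 and 33.2 CPM with 2 extra copies, 40.6, 39.2 and 33.8 CPM with no extra copy and 41.9, 40.6 and 41.7 CPM in uninduced cells. Every library with 2 extra copies lay below every uninduced one, while the last listed library with no extra copy fell among those with 2 extra copies. The log2 fold change was -0.29 (SE 0.079, 1.22-fold lower) against uninduced cells and -0.18 (SE 0.082) against no extra copy. It was -0.11 (SE 0.076) for no extra copy against uninduced cells. Ahcyl2 was the one member lower without overlap in the 2-copy cells, in that single comparison. How many of all genes tested were separated in this way was not counted, while 12.1% of them were called lower there.

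Remethylation is carried out by Mtr, the cobalamin-dependent methionine synthase, and Mtrr, the reductase that returns its oxidised cobalamin to the active state. Mtr, at chr13:12182712-12258113 on the minus strand, had 53.5, 42.8 and 49.0 CPM with 2 extra copies, 53.0, 55.3 and 57.2 CPM with no extra copy and 53.0, 55.7 and 47.9 CPM in uninduced cells. The groups overlapped throughout, and the first library with 2 extra copies lay within the range of the others. The log2 fold changes were -0.18 (SE 0.077) against no extra copy, -0.11 (SE 0.076) against uninduced cells and 0.072 (SE 0.074) between no extra copy and uninduced cells. Mtr has the longest transcript of the members, 8294 bases, and with offsets for the trend of counts with transcript length in each library the value against uninduced cells turned to 0.016.

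Mtrr, at chr13:68560780-68582149 on the minus strand, had 67.8, 71.2 and 68.1 CPM with 2 extra copies, 56.1, 56.9 and 64.3 CPM with no extra copy and 66.4, 63.4 and 63.9 CPM in uninduced cells. All 3 libraries with 2 extra copies exceeded the other 6, by a narrow margin over the first uninduced library. The log2 fold change was 0.24 (SE 0.064, 1.18-fold) against no extra copy, 0.096 (SE 0.062, 1.07-fold) against uninduced cells and -0.14 (SE 0.063) between no extra copy and uninduced cells. Mtr and Mtrr, which act on the same reaction, thus had fold changes of opposite sign in all 3 comparisons, except for the length-offset value of Mtr just given; the difference between them was not tested.

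Cbs encodes cystathionine beta-synthase, which condenses homocysteine with serine and so takes it out of the cycle, and lies on the minus strand at chr17:31608894-31637238. Cbs had 29.8, 32.9 and 31.6 CPM with 2 extra copies, 21.4, 21.1 and 22.1 CPM with no extra copy and 17.2, 19.2 and 18.0 CPM in uninduced cells. It was the one member of the 8 whose groups were fully separated in the order 2 extra copies, no extra copy, uninduced. Myc itself and the summed Ahcy pair had the same order. So did genes of the surrounding lists, among them Srm, Mettl16, Shmt1, Mthfd1, Fbl and Nsun2. The order is therefore not particular to Cbs, and how many of all genes tested had it was not counted. The log2 fold change of Cbs was 0.55 (SE 0.095, 1.46-fold) against no extra copy and 0.79 (SE 0.095, 1.73-fold) against uninduced cells. It was 0.24 (SE 0.10, 1.18-fold) for no extra copy against uninduced cells. Cbs rested on 93 to 218 counts per library. Cth, which encodes cystathionine gamma-lyase, the next enzyme of transsulfuration, did not share this order: it averaged 126 ± 8.49 CPM with 2 extra copies, 127 ± 3.47 CPM with no extra copy and 157 ± 2.09 CPM in uninduced cells (SD, n = 3 each).

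**Figure D3:**
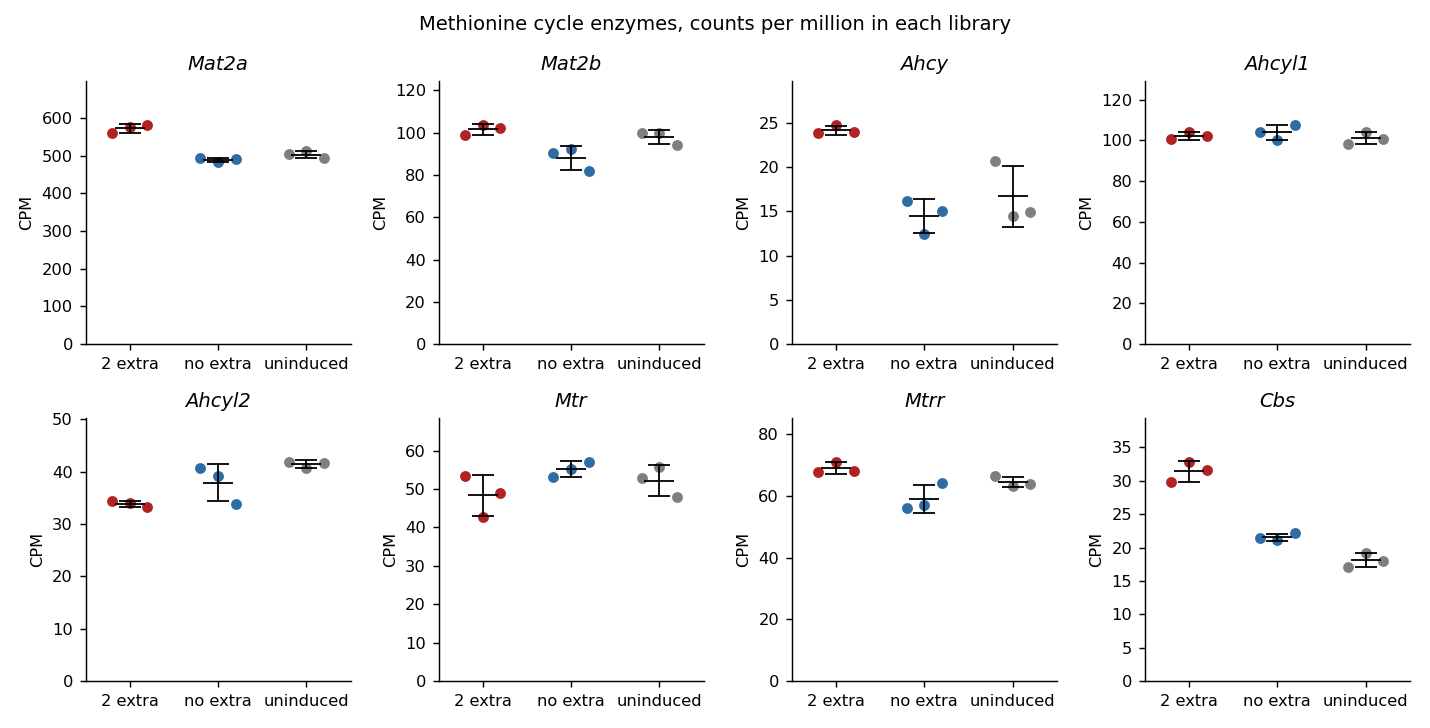
CPM of each methionine cycle enzyme in the 9 libraries, with cells carrying 2 extra Myc copies on the left, cells with no extra copy in the middle and uninduced cells on the right; every vertical axis starts at 0. Points are libraries and bars the mean ± SD (n = 3). Of the genes drawn, Cbs is the one with 3 separate groups, which was not counted over all genes tested. Ahcyl1 spans 98.3 to 108 CPM across all 9 libraries.

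Promoter windows of RefSeq (build GRCm38.p6, 250 bases before to 50 after each start) were searched for the E-box CACGTG, the letters of the site best known to bind Myc with Max, which read alike on both strands. The letters occurred in 2349 of 32851 windows (7.15%) and in 1 of the 13 windows of the 8 members (7.69%). That window belongs to Cbs, and its first 250 bases, upstream of the start at chr17:31637206-31637455 and read from the minus strand, are shown with the E-box in capitals because it is the member ordered like Myc; the E-box begins 229 bases before the start. The letters were absent from the windows of Ahcy and of Gm4737, whose sum had the same order as Myc. A match of letters is a description of the sequence, and binding was not tested.
Cbs upstream: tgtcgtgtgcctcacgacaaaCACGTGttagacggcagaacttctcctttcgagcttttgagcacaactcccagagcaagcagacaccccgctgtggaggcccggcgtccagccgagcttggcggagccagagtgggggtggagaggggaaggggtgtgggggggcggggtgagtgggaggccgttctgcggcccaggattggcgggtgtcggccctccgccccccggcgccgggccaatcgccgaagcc

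By the test used across all genes, edgeR's quasi-likelihood test with Benjamini-Hochberg adjusted p below 0.05, 16.0% of the 13424 genes were called between 2 extra copies and no extra copy, 8.30% higher and 7.70% lower. Of the members, 5 were called higher (Mat2a, Mat2b, Ahcy, Mtrr and Cbs) and 0 lower, with 2 at an unadjusted p under 0.05 in the lower direction. Between 2 extra copies and uninduced cells 25.0% of genes were called, 12.8% higher and 12.1% lower, and of the members 3 were higher (Mat2a, Ahcy and Cbs) and 1 lower (Ahcyl2). Between no extra copy and uninduced cells 13.5% of genes were called, 7.10% higher and 6.39% lower, and of the members 0 were called by edgeR, by DESeq2 or by limma-voom, with 1 higher and 2 lower at an unadjusted p under 0.05. DESeq2 called Mat2a, Ahcy and Cbs in each of the first 2 comparisons and not Mat2b, Mtrr or Ahcyl2, and in the first comparison edgeR did not call Mat2b without the second library with 2 extra copies or the third library with no extra copy, nor Mtrr without the first or the second library with no extra copy. With Gm4737 added to Ahcy the last count became 1, the pair. Nothing is read from these member counts, since the genes were selected on the same libraries. Scaling by library size alone changed the split of all genes called between 2 extra copies and no extra copy to 774 higher and 1360 lower, against 1114 and 1034, and left the 5 members called. The median log2 fold change of the members was 0.21, 0.074 and -0.076 in the 3 comparisons, beside -0.012, -0.014 and 0.0022 over all genes tested. The first 2 comparisons share the libraries with 2 extra copies, the last 2 share the uninduced libraries, and the first and the last share those with no extra copy.

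**Figure D4:**
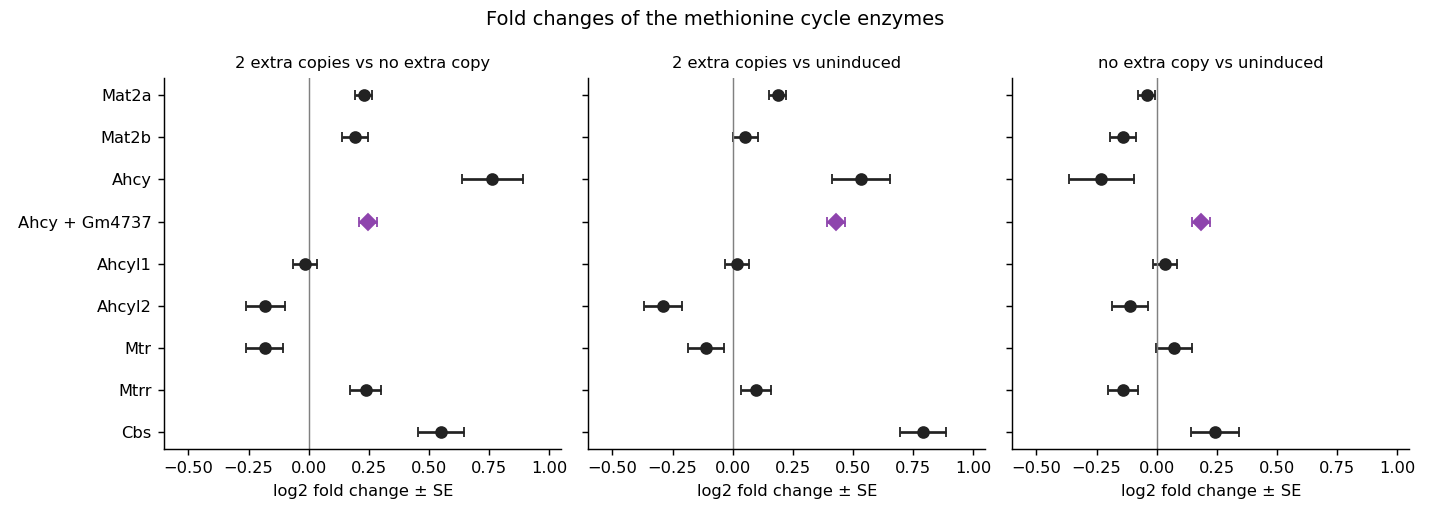
Log2 fold change of each methionine cycle enzyme in the 3 comparisons, with bars of 1 SE; the vertical line marks no change. The diamond is Ahcy summed with Gm4737, at 0.25, 0.43 and 0.18, against 0.76, 0.53 and -0.23 for the row of Ahcy alone.

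Set per kilobase of the longest annotated transcript, the pair had the highest level in cells with 2 extra copies, 219 ± 9.10 CPM per kb, above Mat2a at 169 ± 3.34. The pair was divided by the 2543 bases of the Ahcy transcript, although most of its counts were assigned to Gm4737, with 2093 bases. The shorter length would give the pair higher values in every group. Mat2b followed at 41.3 ± 1.00, then Ahcyl1 at 26.5 ± 0.475 and Mtrr at 17.9 ± 0.483 CPM per kb. Ahcyl2 at 6.56 ± 0.117, Mtr at 5.84 ± 0.644 and Cbs at 5.05 ± 0.249 CPM per kb (SD, n = 3 each) were lowest, and neither Ahcyl2 and Mtr nor Mtr and Cbs differed by more than their summed SDs. In uninduced cells, with the Ahcy length, the pair and Mat2a were closer, at 162 ± 4.73 and 148 ± 2.74 CPM per kb. Cbs stood at 2.91 ± 0.162 there. Read by its own row, Ahcy would stand at 9.50 ± 0.201 CPM per kb in cells with 2 extra copies. The longest transcript need not be the one expressed: over all exonic bases of each gene, Ahcyl2 fell to 1.85 ± 0.0331 CPM per kb in the same cells, below Cbs at 4.20 ± 0.207.

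Genes whose log2 CPM over the 9 libraries was most like that of Mat2a, among 9145 with a mean of at least 10 CPM, were Gnl3 (Pearson r 0.985), Drosha (0.982), Eef1e1 (0.982), Bzw2 (0.980) and Cct8 (0.980). Of the Bzw2 transcript, 50.7% is nearly identical to part of Ppp2r5a, so its counts are uncertain. For the row of Ahcy they were Hibch (0.960), Rabep1 (0.960), Mcu (0.941), Exosc1 (0.930) and Akap8 (0.929). The 9 libraries form 3 groups and share their scaling, so these values describe likeness of level alone, and for Ahcy they carry the uncertainty of its counts.

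The genes around the cycle were followed with 3 lists, which were drawn up with earlier results of these libraries known, so their counts and adjusted p-values, taken over all genes tested, describe these libraries and are not independent evidence. The first held 22 genes of methionine uptake, the salvage of methylthioadenosine, polyamine synthesis, which uses decarboxylated SAM, and other side routes; 19 were tested, while Mat1a, Bhmt and Bhmt2, known from liver, were at most 0.953 CPM in any library and were not. Between 2 extra copies and no extra copy 7 rose and 0 fell, none of them lower at an unadjusted p under 0.05, and DESeq2 called 3. Over all genes tested, 8.30% were called higher and 7.70% lower in this comparison. Srm, spermidine synthase, rose most clearly and averaged 388 ± 18.5 CPM with 2 extra copies, 278 ± 0.947 CPM with no extra copy and 255 ± 12.2 CPM in uninduced cells (SD, n = 3 each). Its fold change was 1.40 against no extra copy (adjusted p = 5.10e-10) and 1.52 against uninduced cells (adjusted p = 7.57e-13), with all libraries higher in both. Amd1, which decarboxylates SAM, rose 1.16-fold against no extra copy (adjusted p = 0.000275), but it shares 99.8% of its transcript with Amd2, so its counts are uncertain.

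Against uninduced cells, 9 genes of this list rose with 2 extra copies and 5 fell, beside 12.8% of all genes tested called higher and 12.1% lower. Mettl16, an RNA methyltransferase known to act on the Mat2a transcript, rose 1.28-fold (adjusted p = 6.33e-06) and averaged 98.0 ± 5.82 CPM with 2 extra copies against 76.3 ± 0.540 CPM in uninduced cells. Cth fell 1.24-fold (adjusted p = 5.70e-06) and Slc3a2, the heavy chain of the methionine-carrying LAT transporters, fell 1.13-fold (adjusted p = 0.000877). Against no extra copy, Slc3a2 was instead 1.09-fold higher with 2 extra copies (adjusted p = 0.0294). Between no extra copy and uninduced cells 2 rose and 5 fell: Mettl16 rose 1.17-fold (adjusted p = 0.00339) and Srm 1.09-fold (adjusted p = 0.0415, and 0.0153 to 0.214 over the alternatives, 11 of which did not call it), while Slc3a2 fell 1.23-fold (adjusted p = 8.31e-07) and Cth 1.24-fold (adjusted p = 1.36e-05). Cth was thus lower than in uninduced cells in both sorted populations of the mosaic. Of all genes tested, 7.10% were called higher and 6.39% lower between no extra copy and uninduced cells. The list's median log2 fold change was 0.13, 0.17 and -0.012 in the 3 comparisons.

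The second list held 16 genes that supply folate methyl groups and cobalamin, all tested. With 2 extra copies, 6 rose and 1 fell against no extra copy, and 3 rose and 4 fell against uninduced cells. With no extra copy, 2 rose and 4 fell against uninduced cells. Of all genes tested, 16.0%, 25.0% and 13.5% were called in these 3 comparisons. Shmt1, the cytosolic serine hydroxymethyltransferase, was ordered like Cbs, at 204 ± 7.88 CPM with 2 extra copies, 172 ± 4.33 CPM with no extra copy and 151 ± 5.13 CPM in uninduced cells (SD, n = 3 each). It rose 1.18-fold (adjusted p = 0.000122), 1.35-fold (adjusted p = 3.09e-09) and 1.14-fold (adjusted p = 0.00292) in the 3 comparisons. Its mitochondrial counterpart Shmt2 rose 1.18-fold with 2 extra copies against no extra copy (adjusted p = 0.000137), and was lower than in uninduced cells in both, by 1.15-fold with 2 extra copies (adjusted p = 0.000271) and by 1.35-fold with no extra copy (adjusted p = 1.14e-09).

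Mthfd1, the cytosolic enzyme that interconverts folate one-carbon units, rose 1.19-fold with 2 extra copies against uninduced cells (adjusted p = 5.50e-06). Folr1, a folate receptor, fell 1.23-fold with 2 extra copies against no extra copy (adjusted p = 0.00214) and rose 1.29-fold with no extra copy against uninduced cells (adjusted p = 0.000214). Mthfd1l, a mitochondrial relative of Mthfd1 that makes formate, fell 1.28-fold with no extra copy against uninduced cells (adjusted p = 3.73e-07). The list's median log2 fold change was 0.081, -0.037 and -0.043.

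The third list held 41 methyltransferases that consume SAM, of which 39 were tested and Gamt and Nnmt were not. With 2 extra copies, 10 rose and 4 fell against no extra copy, and 10 rose and 3 fell against uninduced cells. With no extra copy, 6 rose and 5 fell against uninduced cells. The shares of all genes tested that were called were 16.0%, 25.0% and 13.5% in these 3 comparisons. Nsun2, a tRNA cytosine methyltransferase, rose 1.25-fold (adjusted p = 5.24e-07) with 2 extra copies against no extra copy and 1.33-fold against uninduced cells (adjusted p = 1.52e-09). Fbl, fibrillarin, which methylates ribosomal RNA, rose 1.28-fold in the second of these (adjusted p = 5.43e-08). Dnmt3b, a de novo DNA methyltransferase, averaged 513 ± 16.4 CPM with 2 extra copies, 433 ± 7.68 CPM with no extra copy and 498 ± 12.0 CPM in uninduced cells (SD, n = 3 each). It rose 1.18-fold with 2 extra copies against no extra copy (adjusted p = 1.18e-05) and fell 1.15-fold with no extra copy against uninduced cells (adjusted p = 0.000146).

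Among the methyltransferases that fell with 2 extra copies were Setd1b, a histone H3 lysine methyltransferase, by 1.23-fold (adjusted p = 0.000382) and Icmt, which methylates prenylated proteins, by 1.15-fold (adjusted p = 0.0138, and 0.00441 to 0.122 over the alternatives), both against no extra copy. Against uninduced cells Nsd2, another histone methyltransferase, fell 1.25-fold (adjusted p = 0.000157) and Dnmt3a, the second de novo DNA methyltransferase, fell 1.14-fold (adjusted p = 0.000276, but 0.824 with the length offsets). With no extra copy against uninduced cells, Prmt1, the main arginine methyltransferase, rose 1.17-fold (adjusted p = 9.98e-05) and Ehmt2, which methylates histone H3 at repressed genes, rose 1.11-fold (adjusted p = 0.00905, and 0.00192 to 0.0630 over the alternatives), while Rnmt, the messenger RNA cap methyltransferase, fell 1.15-fold (adjusted p = 0.00751, and 0.00271 to 0.0651 over the alternatives). The list's median log2 fold change was 0.022, 0.047 and -0.020. Each was within 0.1 of that over all genes, as were the medians of the folate and cobalamin list.

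**Figure D5:**
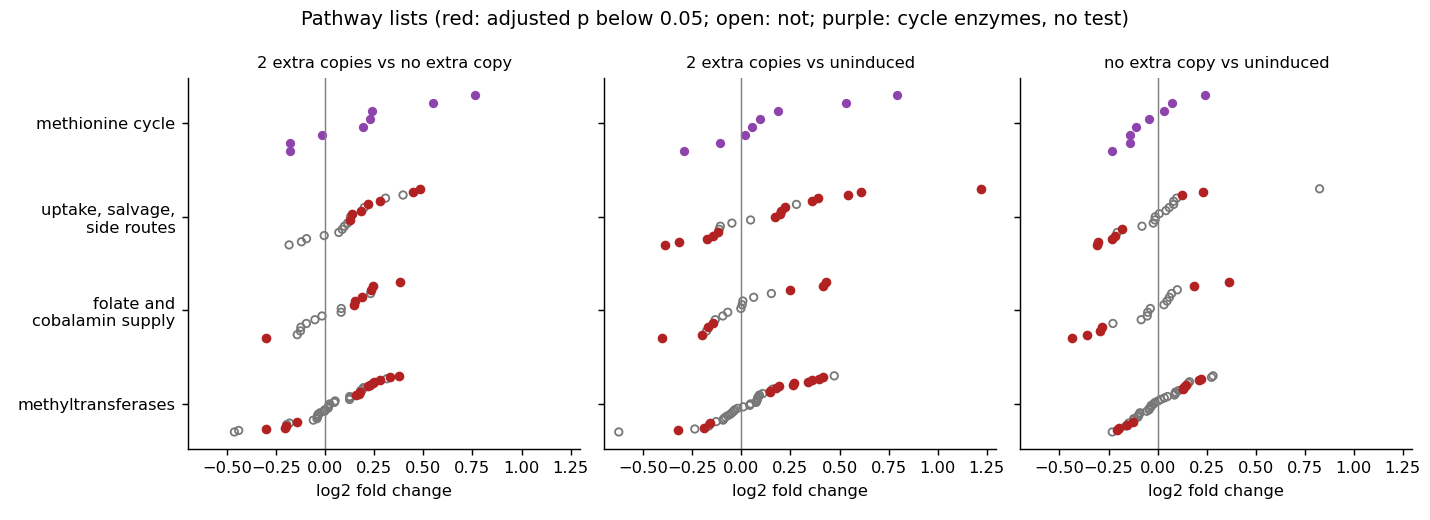
Log2 fold change of the methionine cycle enzymes and of the tested genes in the 3 surrounding lists, 1 panel for each comparison. Red points passed adjusted p below 0.05 and open points did not. The cycle enzymes are purple whether called or not, as they were selected on the same libraries. Between 2 extra copies and no extra copy the red points of the uptake, salvage and side route list are all above 0, 7 in number. Those of the methyltransferases lie on both sides, 10 above and 4 below. Of all genes tested, 8.30% were called higher and 7.70% lower in that comparison.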

How the data were processed

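Total RNA of 9 libraries was sequenced as single-end 75-base reads, per the labels' protocols. The deposited table holds expected counts for each gene; the submitters' processing notes name RSEM 1.17, GRCm38, cutadapt, Picard and limma without their order, and no source used here names the aligner. Counts were rounded (14.9% were not whole), filtered with filterByExpr and tested with edgeR 4.0.16: TMM, a robust quasi-likelihood fit with 1 term per group, Benjamini-Hochberg adjustment over 13424 genes that held 99.8% of the counts. A fold change's SE is its size divided by the root of its F statistic. GENCODE M21 gave symbols for 35432 of 35771 rows; copies were found with BLAST 2.17.0. Alternatives were DESeq2 1.42.0, limma-voom (limma 3.58.1), other scalings, no filter, a replicate block, length offsets, fewer libraries, and Ahcy with or without its copy. The test was checked on simulated data. Intervals of counting were not computed, and depth limits low rows such as Ahcy most. Members and lists were chosen with earlier results of these data known. Named genes were all members, Myc, up to 2 called genes per list, comparison and direction with the smallest p, and the 5 genes most like Mat2a and like Ahcy; Cth is repeated as a neighbour of Cbs, and 1 gene that the rule names is not reported here. Same-numbered libraries of different groups had correlated deviations of -0.10 to 0.21, and differently numbered ones of -0.14 to 0.12. The labels do not say what a number shares, and the numbers were not taken as pairs.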

Additional observations from a re-analysis of the deposited data

How the results depend on the processing

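Members called numbered 4 to 6 between 2 extra copies and no extra copy, 4 between 2 extra copies and uninduced cells and 0 between no extra copy and uninduced cells when each library was left out in turn. In the first comparison Mtrr was not called without the first or the second library with no extra copy, Mat2b was not called without the second library with 2 extra copies or the third library with no extra copy, and Mtr was called lower without the first library with 2 extra copies, which stood apart from its group (chi-square per degree of freedom 2.55 and 2.89 against the others, 1.36 to 1.78 elsewhere). DESeq2 called 3 in that comparison and 3 in the second, Cbs, Ahcy and Mat2a in both. In the last comparison 1 was called with length offsets (Mat2b, lower) and 1 with Ahcy summed with its copy. Genes called numbered 1075, 1889 and 806 with DESeq2 in the 3 comparisons, and 1397 to 2564, 2453 to 3719 and 1177 to 2201 with a library left out; the lowest for the first and the last came without the second library with no extra copy, the deepest. The uptake, salvage and side route list had 3 called in the first comparison with DESeq2, 4 with library size alone and 3 to 9 with a library left out, and 8 in the second with DESeq2 and 9 to 14 with a library left out. The methyltransferases had 9 and 2 with DESeq2 in the first and the last comparison, 7 in the last without the filter, and 9 to 19 in the first and 4 to 12 in the last with a library left out. The replicate block gave 2233, 3440 and 1933 genes and 5, 4 and 0 members. Whether the library numbers pair the samples is not known from the labels. The sum of Ahcy and Gm4737 was refitted in other settings, chosen after seeing the data, and kept its sign in each of them, at 0.21 to 0.30, 0.40 to 0.48 and 0.17 to 0.21. Among the named genes of the 3 lists, none changed sign; Icmt was not called by DESeq2 or without the second or the third library with 2 extra copies or the third library with no extra copy, Ehmt2 by DESeq2 or without the second uninduced library, and Rnmt by DESeq2 or without the third library with no extra copy or the first uninduced one. Srm, between no extra copy and uninduced cells, was not called in 11 settings, among them all 3 without a library with no extra copy, both without the first or second uninduced library, and without the third library with 2 extra copies. Dnmt3a was not called with the length offsets. The cause of these shifts was not tested. Depth limits Ahcy and Cbs most.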
